A study of Mus musculus with 4 samples.

Results

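Mouse embryonic stem (ES) cells of 2 genotypes, wild type (WT) and Naa10 knockout (KO), were compared by reduced representation bisulfite sequencing, in which DNA is cut with MspI and CpG methylation is read in the fragments after bisulfite conversion. A set of 867 windows of 1 kb was examined that were highly methylated in WT and almost free of methylation in KO. They were chosen from 119319 windows of chromosomes 1 to 19 that held at least 3 cytosines read 10 times or more in all 4 libraries. A window's level was its methylated calls over all its calls at these cytosines, and a window was taken when both WT libraries were at 80% or more and both KO libraries below 10%. At 80% or more in both WT libraries there were 52664 windows, so the near-complete-loss windows were 1.65% of them, and the remaining 51797, called other highly methylated windows below, served for comparison. There were 2 libraries of each genotype, all from ES cells kept in N2B27 with LIF, the Mek inhibitor PD325901 and the Gsk3 inhibitor Chir99021. Irradiated fibroblast feeders were present at first and were left out over the last passages before DNA extraction. Neither how the knockout was made nor whether same-genotype libraries stem from different clones or cultures is given in the sources used here, so the spread between libraries may be technical. Words such as loss describe KO relative to WT; a fall in KO and a rise in WT cannot be told apart here.

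Methylation of CpG sites is copied after each round of DNA replication by the maintenance enzyme Dnmt1 with its partner Uhrf1, set anew by Dnmt3a and Dnmt3b, and oxidised by the Tet enzymes. In mammalian genomes scattered CpGs are mostly methylated, and CpG-dense stretches, many of them promoters, mostly are not. Mouse ES cells held under Mek and Gsk3 inhibition are known for low methylation. Naa10 acetylates the N-termini of proteins as the catalytic part of the NatA complex, and by its title the series is about the role of Naa10 in DNA methylation and imprinting.

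The libraries held 68586396 to 79540412 methylation calls, and 1874113 autosomal cytosines were read at least 10 times in each of the 4. Most windows lost much of their methylation in KO, so the near-complete-loss windows are the low end of a broad fall and not a separate cluster. Among the windows at 80% or more in both WT libraries, the higher of the KO levels lay below 5% in 92, at 5 to 10% in 775, at 10 to 15% in 2220 and at 15 to 20% in 4134. Just inside the limit, 3 windows had a higher KO level of 9.97%, 9.96% and 9.96%, and just outside it 3 windows were at 10%. Positions are those of the mouse build mm9. No genes and no sequences were assigned to the windows here, because no mm9 genome or annotation was used.

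The levels that chose the windows are given as a description, with no test. The median level of the near-complete-loss windows was 87.5% in WT replicate 1 and 87.1% in WT replicate 2, against 7.66% in KO replicate 1 and 5.10% in KO replicate 2. In the other highly methylated windows the medians were 91.0% and 91.0% in WT, and 32.6% and 21.2% in KO. The near-complete-loss windows thus also sat lower in WT, within the range the rule allowed. Among highly methylated windows with a mean WT level of 80 to 84%, 3.66% were near-complete-loss windows, and among those at 96 to 100% this was 0.265%. None of the 867 windows was free of methylated calls in both KO libraries. There was no methylated call in KO replicate 1 in 6 windows, and none in KO replicate 2 in 25.

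**Figure D1:**
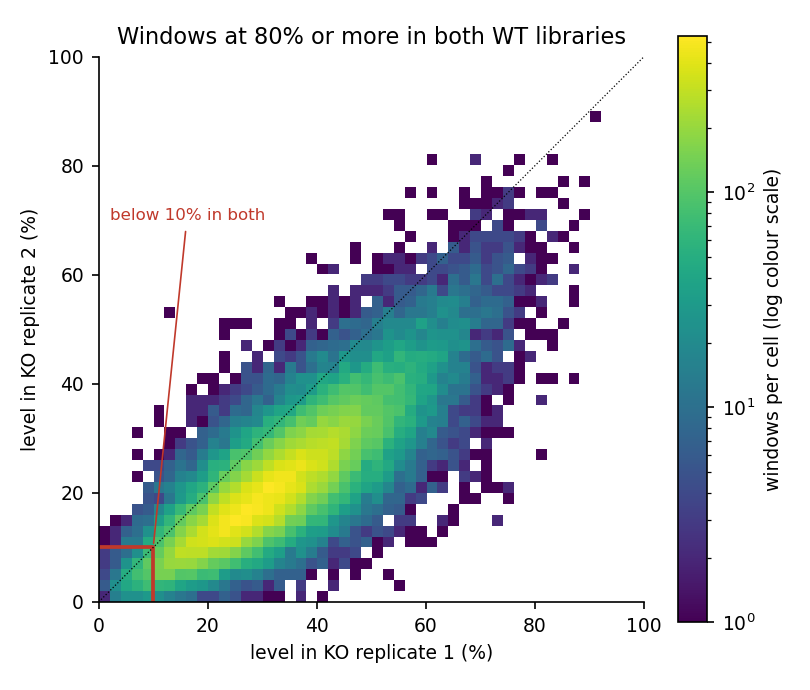
Level in KO replicate 1 (x axis, %) against KO replicate 2 (y axis, %) for the 52664 windows at 80% or more in both WT libraries, as window counts in cells of 2 by 2 points on a log colour scale. The red corner marks the 867 windows below 10% in both, at the edge of a continuous cloud that lies mostly below the dotted line of equal levels.

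The cytosines that chose the windows are described next, and their low KO levels follow from the choice. The windows held 4870 cytosines, of which 71.0% were below 10% in KO replicate 1 and 82.6% in KO replicate 2. In 597 of the 867 windows (68.9%) every cytosine was below 20% in both KO libraries, and in the remaining windows at least 1 cytosine was not. At 50% or more there were 2 cytosines of KO replicate 1 and 0 of KO replicate 2, and the highest single cytosine reached 52.4%. Of 1367 CpGs read on both strands in these windows, 1238 (90.6%) were below 20% on both strands in both KO libraries, against 14.5% in the other highly methylated windows. In KO replicate 1 the cytosines at the lower coordinate of these CpGs were at 6.76% and their partners on the other strand at 6.93%, and in KO replicate 2 the values were 4.87% and 4.71%.

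Of the windows with the most cytosines, the largest was that from 135825001 to 135826000 of chromosome 5, with 43 cytosines and 829 to 1292 calls per library. It was methylated at 90.2% and 86.9% in WT, and at 6.11% (95% exact binomial interval 4.87 to 7.56%) and 2.78% (1.92 to 3.89%) in KO. Such intervals cover counting error only and treat every call as independent. Because 1 read can give calls at several cytosines, they are too narrow even for counting error. Whether PCR duplicates were removed is not given. The window starting at 92812001 of chromosome 2, with 38 cytosines, had 80.5% and 81.4% in WT, close to the lower limit, and 7.60% and 7.97% in KO. It lay 1 kb from a CpG-dense window. The window starting at 97934001 of chromosome 11, with 33 cytosines, was at 91.4% and 93.5% in WT and at 7.23% and 6.70% in KO. Its few held-out cytosines, which the rule did not use, were low in WT too, at 14.3% of 7 calls and 0% of 17 calls.

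On chromosome 8, the window starting at 49325001 held 26 cytosines and went from 92.5% and 92.4% to 8.55% and 3.58%, and it also held the highest single cytosine named above. On chromosome 17, the window starting at 79063001 had 22 cytosines, 81.7% and 86.0% in WT and 7.14% and 6.15% in KO. Chromosome 18 carried 3 of the 10 windows with the most cytosines. They started at 62909001, 37425001 and 80502001, held 22, 21 and 20 cytosines, and had KO replicate 1 levels of 8.06%, 9.06% and 7.14% and KO replicate 2 levels of 5.42%, 4.48% and 4.38%. The windows starting at 93712001 of chromosome 10 and 71756001 of chromosome 1 had 20 cytosines each. The former was at 4.69% and 4.11% in KO, and the latter at 6.73% and 5.83%. At held-out cytosines the latter had 100% and 92.7% in WT and 23.1% and 35.3% in KO, from 14 to 55 calls. Held-out KO levels were 15.0% and 7.14% in the chromosome 5 window and 5.36% and 3.49% in that of chromosome 2. In the chromosome 18 window starting at 62909001 they were 5.41% and 0%. The others of the 10 had fewer than 10 held-out calls in at least 1 library. These large windows are exceptions by size, since only 10 of the 867 had 20 or more cytosines.

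Because all 4 libraries chose the windows, the level in one KO library was also read after choosing on the other, with the WT rule kept. Choosing on KO replicate 1 alone gave 1037 windows below 10%, and 867 of them (83.6%) were also below 10% in KO replicate 2, where their median was 5.77% against 21.25% in the rest of the highly methylated windows. Choosing on KO replicate 2 alone gave 5534 windows, of which 15.7% were below 10% in KO replicate 1. Their median in KO replicate 1 was 16.4%, against 34.0% in the rest. When KO replicate 1 was left out altogether, the rule took 5790 windows. In windows with at least 200 calls in each library, 174 of 188 windows (92.6%) chosen on KO replicate 1 were also below 10% in KO replicate 2, and 174 of 1203 (14.5%) chosen on KO replicate 2 were below 10% in KO replicate 1. Of all highly methylated windows, 10.5% were below 10% in KO replicate 2 and 1.97% in KO replicate 1.

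At cytosines that the rule had not used, KO levels were lower than in other highly methylated windows, but KO replicate 1 was above the limit of 10%. These held-out cytosines lie in the same windows but were read fewer than 10 times in at least 1 library, and 620 of the 867 windows held any. Over 3138 held-out cytosines, WT replicates 1 and 2 were at 83.7% and 83.3%, and KO replicates 1 and 2 at 14.4% and 8.57%. The 256714 held-out cytosines of the other highly methylated windows were at 86.0% and 85.8% in WT, against 32.3% and 21.5% in KO. The genotypes did not overlap in either set. In the near-complete-loss windows the WT mean was 83.5% ± 0.258 (SD, n = 2). The KO mean was 11.5% ± 4.11 (SD, n = 2), or -72.0 points relative to WT, with p = 0.333 in a two-sided exact permutation test of the libraries. That is the smallest p that 2 against 2 libraries allow. The gap to the other windows, taken per library, was -2.34 and -2.43 points for the WT libraries, against -17.9 and -13.0 points for KO (exact permutation p = 0.333). KO held-out levels were thus below those of other windows in both KO libraries, but above the levels at the cytosines that chose the windows.

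**Figure D2:**
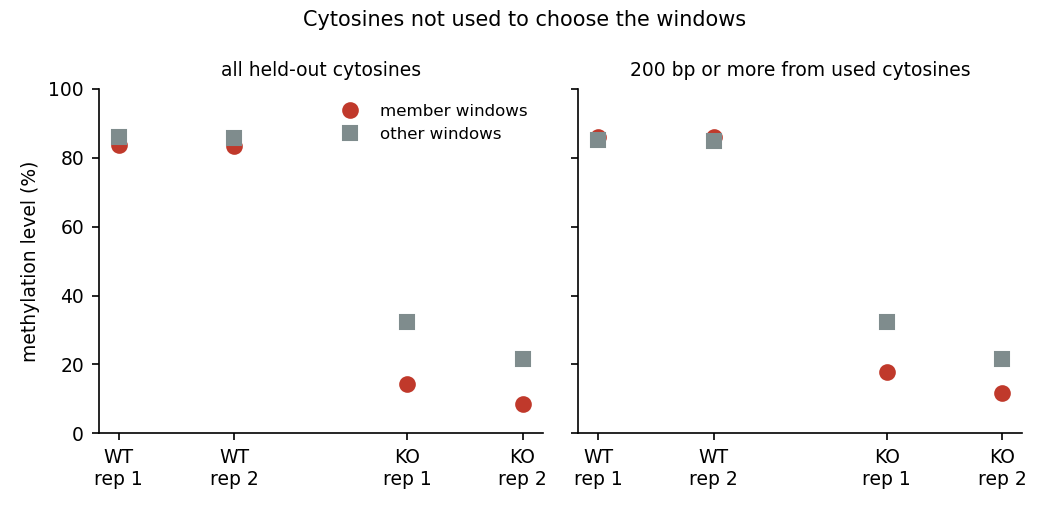
Methylation level (y axis, %) of held-out cytosines in each of the 4 libraries (x axis), for the near-complete-loss windows (member windows, red circles) and the other highly methylated windows (grey squares); each point is methylated calls over all calls, summed over windows. WT points lie between 83.3% and 86.1%, and in both panels the red points are below the grey ones in KO, at 14.4% and 8.57% on the left and 17.8% and 11.5% on the right.

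Held-out cytosines can sit on the same reads as the cytosines used. At the 705 held-out cytosines at least 200 bp from every cytosine used, the near-complete-loss windows had 85.9% and 86.1% in WT and 17.8% and 11.5% in KO. The other highly methylated windows had 85.2% and 84.8% in WT and 32.2% and 21.6% in KO. The near-complete-loss windows thus differed from the others by 0.725 and 1.24 points in WT and by -14.4 and -10.05 points in KO. The part of shared reads in the held-out values was not tested beyond this distance.

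Window by window, 233 of the 867 had at least 10 held-out calls in every library and could be tested. At held-out cytosines 81 of the 233 (34.8%) were below 10% in both KO libraries, against 3.23% of the 16988 other highly methylated windows with as many calls. In edgeR's quasi-likelihood test on held-out methylated and unmethylated calls, with Benjamini-Hochberg adjustment over 120825 windows, 231 of the 233 were called lower in KO, beside 78.0% of all windows tested and 98.2% of the other highly methylated windows. A fall in KO was therefore common to nearly all the highly methylated windows that could be tested, 17221 in number. Those of the 233 not called lower had 0% at held-out cytosines in all 4 libraries, WT included. Measured against the shift of the whole library, 61 of the 233 (26.2%) were called below it and 0 above it (1 with an unadjusted p below 0.05), beside 1.81% of all windows called below and 3.21% called above. Of the other highly methylated windows tested, 2.53% were called below the shift, and of all highly methylated windows tested 2.85%. The median log2 odds ratio against the shift was -1.82 in the near-complete-loss windows and -0.29 in the other highly methylated windows.

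The count against the shift was lower with any library left out. These fits have a genotype with a single library, which is assumed to vary like the other genotype's pair, and fewer samples. Leaving out WT replicate 1 gave 20 windows, and leaving out WT replicate 2 gave 23. It fell to 28 when KO replicate 1 was dropped and to 34 when KO replicate 2 was, while, in this order, the share of all windows called below was 0.410%, 0.516%, 0.955% and 0.907%. With held-out cytosines at least 200 bp from those used, 5 of 32 windows were called below the shift, beside 1.53% of all windows tested.

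The 5 windows with the most held-out calls were not alike. That starting at 107117001 of chromosome 8 had held-out levels of 85.0% and 87.7% in WT and 6.15% and 4.98% in KO, from 195 to 301 calls per library, with an adjusted p of 0.00194 against the shift in the edgeR test. That starting at 100203001 of chromosome 13 had 77.1% and 81.6% in WT and 5.56% and 5.03% in KO (edgeR adjusted p against the shift 0.0460). On chromosome 10, the window starting at 93507001 had 90.9% and 97.3% in WT and 25.5% and 10.4% in KO. Its adjusted p against the shift was 0.0180 in edgeR. That test compares the odds in KO with those in WT, and the median level behind the shift was 26.3% in KO replicate 1. On chromosome 15, the window starting at 85912001 had 91.8% and 92.8% in WT and 15.4% and 16.5% in KO, and did not pass (0.0502). On chromosome 6, the window starting at 113325001 had 83.8% and 82.4% in WT at held-out cytosines. It kept 19.6% and 25.6% in KO there, against 5.53% and 5.09% at the cytosines used, and did not pass against the shift (0.868).

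Few cytosines and few neighbours went with near-complete loss. The median number of cytosines was 4 in the near-complete-loss windows and 6 in the other highly methylated windows, and 38.4% against 30.8% of windows had all their cytosines within 100 bp. The median stretch from the first to the last cytosine read was 115 bp against 133 bp. Over that stretch the median density was 41.3 against 44.4 cytosines per kb. Of highly methylated windows with 3 cytosines, 2.67% were near-complete-loss windows (95% exact binomial interval 2.34 to 3.04%), and of those with 10 to 19 cytosines 0.882% (0.701 to 1.09%). The number of calls moved with this, and the share was 2.503% of windows whose least covered library had 30 to 49 calls and 0.954% of those with 300 or more. The 95% upper bound of the level was below 10% in both KO libraries in 98 windows and below 20% in 818. These bounds, too, treat every call as independent, so both counts are likely too high. How far counting error set the number of windows was not tested.

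Surroundings were sparse. CpG-dense windows, here windows with at least 40 cytosines read, are mostly unmethylated. The median distance to the nearest of them was 122 kb for the near-complete-loss windows and 73 kb for the other highly methylated windows. A dense window lay within 2 kb of 5 of 867 (0.577%) and of 1.48% of the other windows, and within 10 kb of 6.46% and 10.3%. The difference at 2 kb, -0.902 points, was -0.448 points without KO replicate 1 and -0.468 points without WT replicate 1. At like numbers of measured windows within 50 kb the order at 10 kb was not constant. With 3 to 5 such windows 5.95% of the near-complete-loss windows and 3.90% of the others had a dense window within 10 kb, and with 21 or more it was 19.05% and 31.8%. Of the 24 dense windows that were the nearest to a near-complete-loss window within 5 kb, 21 (87.5%) were below 20% in both WT libraries. Of the 1987 nearest to other highly methylated windows, 1849 (93.1%) were. Distances to windows below 20% in both WT libraries, of any density, gave the same order, with medians of 71 kb and 41 kb. The median distance was also greater among windows with 3 cytosines (164.5 against 79 kb) and among those with 10 to 19 (85 against 67 kb).

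The number of measured windows nearby followed the same pattern. Within 50 kb there was a median of 4 other measured windows around the near-complete-loss windows and 7 around the other highly methylated windows. No other measured window lay within 10 kb of 43.8% of the former and 29.0% of the latter. Among highly methylated windows with 0 to 2 measured windows within 50 kb, 2.99% were near-complete-loss windows (exact interval 2.67 to 3.34%), and among those with 21 or more it was 0.847% (0.611 to 1.14%). By both counts at once, the share was 4.71% (4.12 to 5.37%) in windows with 3 to 4 cytosines and up to 2 measured neighbours, 1.27% in windows of the same size with 11 or more neighbours, and 0.625% with 10 or more cytosines and 11 or more neighbours. Median KO levels of the other windows differed little between these classes, from 30.5 to 34.8% in KO replicate 1, but their spread differed. With 3 to 4 cytosines and up to 2 neighbours, their 10th and 90th percentiles in KO replicate 1 were 14.7% and 52.8%. With 10 or more cytosines and 11 or more neighbours they were 20.5% and 45.6%. Windows with 10 or more cytosines and up to 2 neighbours had 20.1% and 54.8%. The 10th percentile was thus lowest in small windows in sparse surroundings, while the 90th was not highest in small windows. Windows are not replicates, so these shares carry no test.

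**Figure D3:**
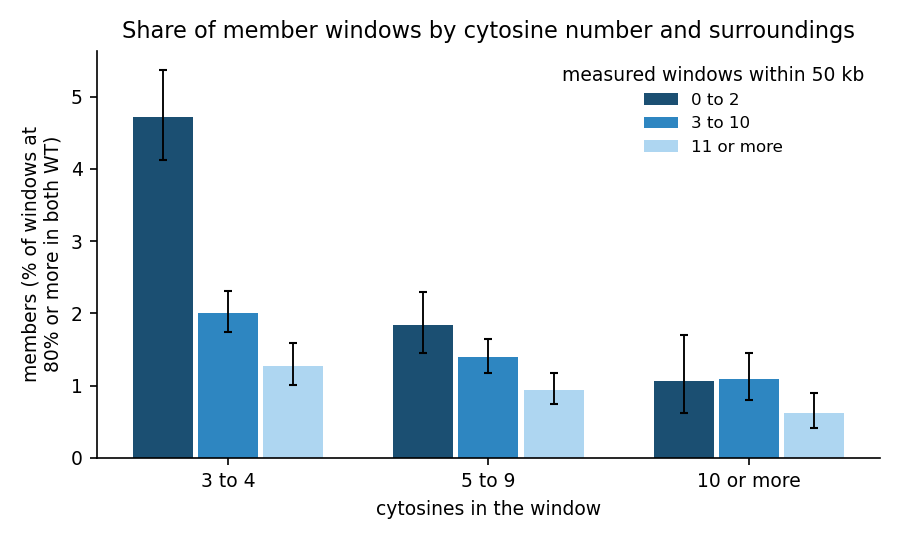
Near-complete-loss windows as a percent of all windows at 80% or more in both WT libraries (y axis), by the number of cytosines in the window (x axis) and the number of other measured windows within 50 kb (bar colour); error bars are 95% exact binomial intervals, which cover counting of windows only. The tallest bar, 4.71%, is that of windows with 3 to 4 cytosines and at most 2 measured neighbours.

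Few of the windows had measured neighbours. Directly beside the 867, highly methylated neighbours were counted 100 times, with a neighbour shared by several of the 867 counted for each. Near-complete-loss windows made up 22 of these (22.0%), against 0.838% of those beside other highly methylated windows, counted alike. That is, 22 of the 867 had a near-complete-loss window directly beside them, and these 11 pairs each had cytosines 17 to 61 bp apart across the window border, so the same fragment may have been counted in both. With gaps of up to 10 kb there were 20 groups, of which 19 were pairs and 1 was a set of 3. The set of 3 lay between 55021001 and 55027000 of chromosome 4, with KO levels of 1.52 to 8.63% in its 3 windows and 12.8% in both KO libraries in another highly methylated window between them. The next groups by size were pairs starting at 23353001 of chromosome 8, 66228001 of chromosome 14, 152207001 of chromosome 4 and 17383001 of chromosome 19. Summed over each pair, the KO levels ran from 5.29 to 9.01% in KO replicate 1 and from 2.05 to 5.05% in KO replicate 2.

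Beyond the border, near-complete-loss windows still had more of their own kind around them than other windows had. At 2 to 10 kb, 4.68% of their highly methylated neighbours were near-complete-loss windows (11 pairs), against 1.04% for other highly methylated windows. At 51 to 100 kb the shares were 2.27% and 1.28%. These shares follow from the choice of windows and carry no test.

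Neighbours that were not near-complete-loss windows themselves give values outside the rule, apart from their having missed its limits. The 117 measured windows directly beside one averaged 80.4% ± 0.313 (SD, n = 2) in WT. In KO they averaged 16.05% ± 4.36 (SD, n = 2), or -64.3 points relative to WT (two-sided exact permutation p = 0.333, the smallest possible). Of these, 77 were at 80% or more in both WT libraries. They had 90.3% and 90.1% in WT and 23.7% and 16.2% in KO, and the 8705 highly methylated neighbours of other windows had 90.6% and 90.7% in WT and 34.8% and 23.5% in KO. Beside near-complete-loss windows the levels thus differed by -11.1 and -7.33 points in KO and by -0.26 and -0.59 points in WT (exact permutation p = 0.333 for the change of this gap between genotypes).

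With neighbours whose cytosines were all at least 200 bp from those of the near-complete-loss window, 34 windows remained, at 26.8% and 19.1% in KO, against 35.1% and 23.9% by the same rule around other windows. At 2 kb the KO levels were 29.3% and 20.2%, against 34.7% and 23.6%. At 5 kb they were 32.7% and 22.5%, against 33.9% and 22.9%. The difference did not fall off steadily with distance. At 10 kb the KO levels were 30.04% and 19.1%, against 33.7% and 22.6%, over 53 windows. At 20 kb they were 33.2% and 20.2%, against 33.6% and 22.3%, over 51 windows. At 50 kb they were 28.0% and 19.6%, against 33.4% and 22.4%, over 49 windows.

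**Figure D4:**
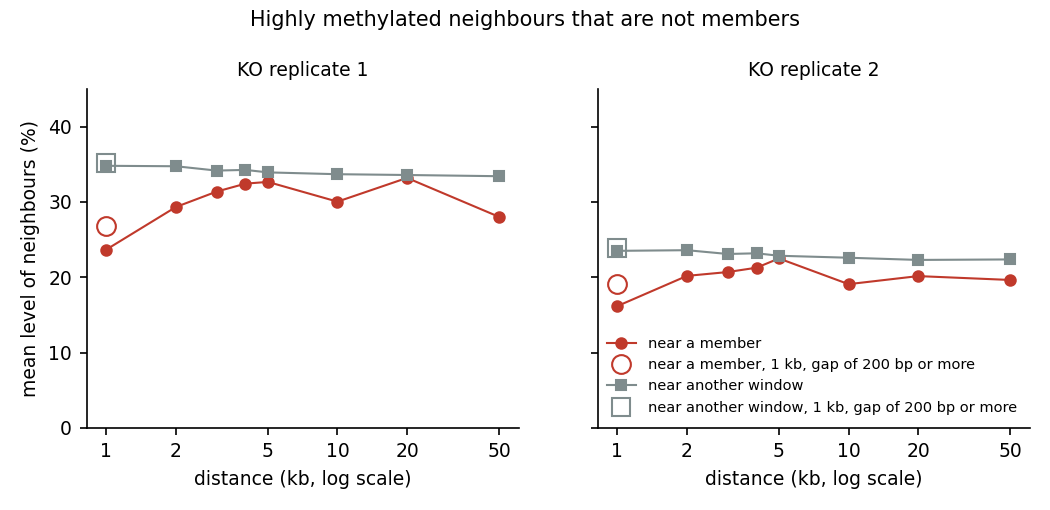
Mean level (y axis, %) in KO replicate 1 (left) and KO replicate 2 (right) of windows at 80% or more in both WT libraries that are not near-complete-loss windows, by their distance (x axis, kb, log scale) from a near-complete-loss window (member, red) or from another highly methylated window (grey). Open symbols are neighbours at 1 kb whose cytosines are at least 200 bp away. The red points are lowest at 1 kb, at 23.7% and 16.2%. They lie close to the grey ones at 5 kb and are below them again at 10 kb and 50 kb. At 20 kb they are close in KO replicate 1 and below in KO replicate 2.

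Spacings of cytosines recurred between windows, and 1 of them held more near-complete-loss windows than any other. It was noticed after the values had been seen, so it is a description. Taken in either direction, gaps of 30, 1 and 75 bp between successive cytosines, where the gap of 1 bp is the pair of strands of 1 CpG, occurred in 92 highly methylated windows on 19 chromosomes. Of these, 13 (14.1%, exact interval 7.74 to 22.95%) were near-complete-loss windows, on 9 chromosomes, against 1.62% of highly methylated windows without this spacing. The latter are of all sizes and surroundings. Among highly methylated windows with 3 to 4 cytosines and up to 2 measured windows within 50 kb the share was 4.71%. Among the 604 highly methylated windows whose full spacing of 4 or more cytosines was shared by at least 5 windows, 28 (4.64%) were near-complete-loss windows, and this spacing alone gave 13 of them. There were 92 such shared spacings, and 4 spacings held 2 or more near-complete-loss windows. With 1 bp of tolerance in each gap, 196 highly methylated windows had the spacing and 22 (11.2%) were near-complete-loss windows.

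The 92 windows had median levels of 88.6% and 89.5% in WT and of 15.9% and 12.3% in KO. In 76 of them both KO libraries were below the medians of the other highly methylated windows. They were far from CpG-dense windows, at a median of 408 kb, and 64.1% had at most 2 other measured windows within 50 kb. Their depth was ordinary, with median calls per cytosine of 29.0 and 26.5 in WT and 27.3 and 27.6 in KO. The 13 near-complete-loss windows among them each held 4 cytosines. As examples, the first by position started at 150723001 of chromosome 1 and had 89.2% and 96.97% in WT and 7.14% and 1.43% in KO, with no other measured window within 50 kb. The next started at 107594001 of chromosome 2 and went from 80.3% and 86.4% in WT to 7.60% and 7.27% in KO. Sequences of these windows were not compared here.

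**Figure D5:**
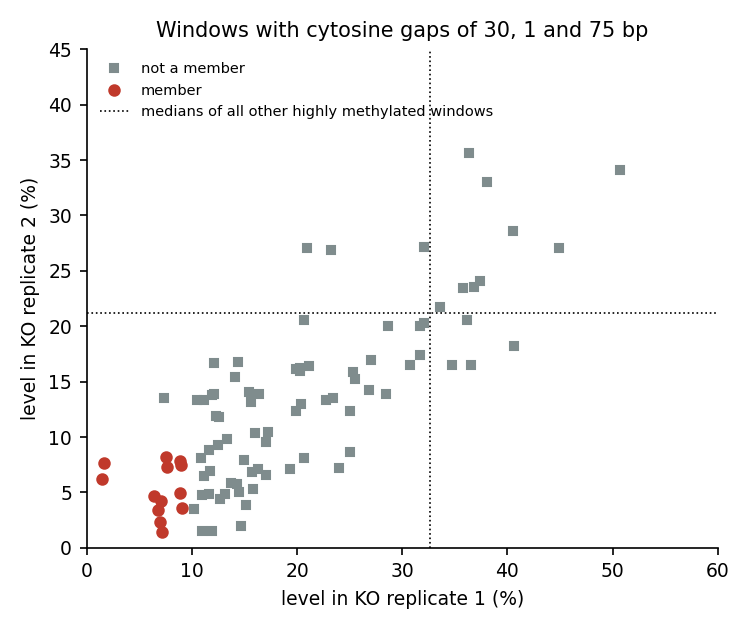
Level in KO replicate 1 (x axis, %) and KO replicate 2 (y axis, %) of the 92 windows at 80% or more in both WT libraries that hold cytosine gaps of 30, 1 and 75 bp; red circles are the 13 near-complete-loss windows (members), and dotted lines mark the medians of the other highly methylated windows, 32.6% and 21.2%. Most points, 76 of 92, lie below and to the left of both lines.

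Calls per window were fewer in the near-complete-loss windows, with medians of 132 and 114 in WT and 123 and 119 in KO, against 171, 148, 156 and 156 in the other highly methylated windows. Mean calls per cytosine were 31.6 and 27.4 for WT and 30.5 and 30.4 for KO, against 33.2, 28.7, 30.3 and 30.7 in the others. The KO to WT ratio of calls per window had a median of 1.02 and 0.985, and was 1.5 or more in 18 of the 867 (2.08%) and in 1.28% of the others. Above 66.25 calls per cytosine and library, the highest 1% of highly methylated windows, lay 7 of the 867 (0.807%) and 1.00% of the others. The near-complete-loss window with the most calls in its least covered library started at 23694001 of chromosome 19, with 1473 and 1269 calls in WT and 2266 and 2042 in KO. It was methylated at 90.02% and 88.02% in WT, at 6.84% and 2.79% in KO at the cytosines used, and at 36.0% and 34.4% in KO at held-out ones.

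All autosomes carried such windows. Their share of highly methylated windows ran from 1.09% on chromosome 13 (26 windows, exact interval 0.714 to 1.59%) to 2.32% on chromosome 16 (39 windows, 1.65 to 3.16%). Chromosome 8 had 66 (1.83%, 1.42 to 2.32%), the second largest number after the 68 of chromosome 7. Along the chromosomes, cut into 5 equal stretches, the share was 1.45% in the first, 1.99% in the middle and 1.53% in the last, and within 5 Mb of the chromosome's end as covered here it was 1.91%. These intervals, too, cover counting of windows only. Of the highly methylated windows with no other measured window within 50 kb, 4.22% were near-complete-loss windows (116 of 2750), and of those with 20 or more cytosines 0.890% (10 of 1123).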

How the data were processed

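The authors deposited 1 table per library that gives, per cytosine, a methylation percent and 2 counts, of methylated and of unmethylated calls; the deposited percent equals the methylated count over both counts, and the deposited counts, which are not normalised, were used throughout. Per the submitters' processing notes, Trim Galore, Bismark 0.10.1 and the build mm9 were used, with no role or order given. The sources used here do not say how reads were filtered or whether duplicates were removed.

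The windows and their comparisons were chosen with earlier results of these data known. Held-out calls were summed per 1 kb window and tested with edgeR 4.0.16 (R 4.3.3), in a model of each library's total, the methylated state and its interaction with genotype, where each library had at least 10 such calls. Calls were made at an adjusted p below 0.05 where the group means were at least 10 points apart. For the shift, each library's methylated calls were offset by its median logit level over windows averaging 10 to 90%; the required difference was that between the measured group means. Exact permutation tests over libraries used scipy 1.17.1. Windows named in the text are the 10 with the most cytosines and the 5 with the most calls in their least covered library (4 of them among the former), with any within 10 kb of one already taken left out, the 5 with the most held-out calls in their least covered library, and the 5 largest groups with gaps of up to 10 kb. Windows named for the spacing, and the count of that spacing, were chosen after their values were seen. Alternatives were other coverage minimums, window sizes, borders and limits, limma 3.58.1, each library left out, and the replicate number as a block.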

Additional observations from a re-analysis of the deposited data

How the results depend on the processing

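The number of near-complete-loss windows follows the limits. It was 436 at a coverage minimum of 20, 91 with at least 10 cytosines per window, 92 with KO below 5% and 3087 with KO below 15%, and it ran from 1093 to 5790 with 1 library left out; the other settings gave 804 to 1259. The difference in median cytosine number, -2 here, was -1 at a coverage minimum of 20 and with windows of 500 bp, 0 with at least 10 cytosines per window, and -2 to -1 with 1 library left out. The share near a dense window, members minus others, was -0.902 points here, -2.59 with dense windows from 20 cytosines, -0.317 from 80, and -0.887 to -0.448 with 1 library left out. Held-out KO minus WT differences stayed between -74.0 and -67.6 points, and those of adjacent windows between -68.7 and -55.1, under all settings run (-53.9 for windows 2 kb away); with 1 library left out they ran from -71.6 to -67.6 and from -63.0 to -59.9. With held-out cytosines at least 200 bp away, which leaves 32 windows to test, 32 were called lower in KO and 5 below the shift. Of all windows tested in this way, 87.3% were called lower and 1.53% below the shift, and of the other highly methylated windows 97.4% and 1.05%. With 1 library left out, 227 to 229 were called lower and 20 to 34 below the shift; limma gave 231 and 52. Without a minimum difference 61 were still called below the shift, beside 1.81% of all windows. The share of all windows called above it went from 3.21 to 6.61%. With the replicate number as a block, 230 were called lower, beside 77.0% of all windows and 97.6% of the other highly methylated windows. By that fit 52 were below the shift, beside 1.33% of all windows. Sign flips within replicate numbers gave an exact p of 0.5, the smallest possible, for held-out levels (-72.0 points) and for adjacent windows (-64.3 points). Deviations of same-numbered libraries at held-out calls had a correlation of -0.00564 over 97372 windows, so no pairing was seen window by window. A library-wide effect shared by same-numbered libraries would not appear in this value, and few calls per window could hide a weak one. Leaving out the recurrent spacing and the neighbours within 200 bp was chosen after seeing the data; the former left 854 windows.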

Other observations

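Chromosome X lies outside the rule. Of its 1115 windows at 80% or more in both WT libraries, 19 were below 10% in both KO libraries, or 1.70% (95% exact binomial interval 1.03 to 2.65%). The share on the autosomes was 1.65%.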
